A study of Mus musculus with 2 samples.

Results

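Late hemoglobinizing erythroblasts were examined in a droplet-based single-cell RNA sequencing data set from healing mouse skull bone. They were taken as the cell barcodes of both libraries with at least 200 detected genes, at most 20% of UMIs from mitochondrial genes, and at least 3 UMIs of both Slc4a1 and Alas2. The cells were thus chosen by their measured Slc4a1 and Alas2 counts. A UMI (unique molecular identifier) counts 1 captured RNA molecule. The rule found 1417 of 22810 filtered barcodes, of which 919 of 10531 came from the CGG-Cit library and 498 of 12279 from the CGG library. Both libraries came from wild-type C57BL/6 mice with a 2 mm hole in the parietal bone, and the groups differed by the hydrogel put into the hole, CGG-Cit or CGG. Tissue was trimmed from the defect 14 days after surgery and digested with collagenase, and the whole cell suspension was loaded with no sort named in the labels. Neither hydrogel's name is spelled out in the labels, nor do they say how many mice each library pooled. With 1 library per hydrogel there was no replicate check. All intervals below are 95% intervals that cover counting error only, so the hydrogels are compared by values alone, without a test.

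Erythroblasts are the nucleated precursors of red cells, made in bone marrow from progenitors that respond to erythropoietin. As they mature they stop dividing, fill with hemoglobin, condense and expel the nucleus, and clear their organelles, while a small set of messages for globin, heme, membrane skeleton and ubiquitin enzymes remains. Slc4a1 encodes band 3, the anion exchanger of the red cell membrane, and Alas2 encodes the erythroid form of the first enzyme of heme synthesis.

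The CGG-Cit matrix held 10806 barcodes and 106173570 UMIs, and the CGG matrix held 12527 barcodes and 92517884 UMIs. The 2 matrices shared 34 barcode sequences, and 0 of these were members in both libraries. Levels in summed barcodes are given as CPM, UMIs per 1000000 non-globin UMIs, with the 4 adult globin genes left out of the total. A gene was measured where it had at least 20 CPM in the higher set and 20 UMIs in both together, and it was called higher or lower past 1.5-fold with an interval that excluded 1. A background level came from the 7913 CGG-Cit and 8766 CGG barcodes with 0 UMIs of a set of erythroid genes that included Slc4a1, Alas2, Klf1, Gata1 and Car1. These barcodes are mostly other cells, and their level holds both their own RNA and free RNA. Their globin share reached 11.5% in the CGG-Cit library and 92.3% in the CGG library, so the CGG set held at least 1 globin-rich barcode.

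The promoter sequences of the globin genes and of Alas2 are shown first because Alas2 is a rule gene and globin UMIs made up most of the RNA of the cells. No promoter of Slc4a1 is shown. Each line gives the 250 bases before the start of the gene in RefSeq (build GRCm38.p6), 5′ to 3′ on the strand of the gene. Capitals mark matches to 3 motifs, each searched on both strands. The first motif is GATAA, which on the opposite strand is written TTATC. The second motif is CACCC, which on the opposite strand is written GGGTG. The third motif is CCAAT, which on the opposite strand is written ATTGG. In each window 0 bases fell in more than 1 motif. These 3 strings resemble the sites of GATA1, KLF1 and NF-Y.
Hba-a1, chr11:32283422-32283671, plus strand: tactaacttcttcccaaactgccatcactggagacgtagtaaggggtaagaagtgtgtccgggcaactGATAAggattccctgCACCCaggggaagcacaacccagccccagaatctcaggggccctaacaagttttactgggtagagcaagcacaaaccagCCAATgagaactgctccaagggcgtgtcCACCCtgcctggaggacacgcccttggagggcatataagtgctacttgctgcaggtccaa
Hbb-bs, chr7:103827929-103828178, minus strand: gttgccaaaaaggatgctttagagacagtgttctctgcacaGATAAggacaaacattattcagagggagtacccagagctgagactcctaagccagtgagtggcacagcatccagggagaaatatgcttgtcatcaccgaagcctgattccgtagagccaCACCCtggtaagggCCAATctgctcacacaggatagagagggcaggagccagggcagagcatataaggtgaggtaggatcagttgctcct
Hbb-bt, chr7:103813924-103814173, minus strand: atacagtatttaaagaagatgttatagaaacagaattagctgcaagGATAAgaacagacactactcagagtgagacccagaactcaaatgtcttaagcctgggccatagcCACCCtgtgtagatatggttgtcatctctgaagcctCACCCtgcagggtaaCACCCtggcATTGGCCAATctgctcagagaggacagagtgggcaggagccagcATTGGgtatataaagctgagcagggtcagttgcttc
Alas2, chrX:150547167-150547416, plus strand: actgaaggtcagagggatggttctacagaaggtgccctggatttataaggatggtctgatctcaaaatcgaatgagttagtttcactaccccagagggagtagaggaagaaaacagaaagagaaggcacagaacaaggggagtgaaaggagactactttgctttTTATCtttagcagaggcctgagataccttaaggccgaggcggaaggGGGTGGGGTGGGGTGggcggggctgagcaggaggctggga
The GATAA motif occurred 1 time in each window, at -182 in Hba-a1, -209 in Hbb-bs, -204 in Hbb-bt and -86 in Alas2. Over 32851 promoters of this length, GATAA was found in 22.6%, CACCC in 52.0% and CCAAT in 33.8%. Of 9 globin promoters in the table, 7 held GATAA and 7 held CCAAT, and of 26 promoters of proliferation genes, 23 held CCAAT. The Hba-a1 and Hba-a2 windows shared a run of 247 of 250 bases, whereas the longest run shared by Hbb-bs and Hbb-bt was 14 bases. These windows are promoter sequence and do not show how well counts of Hba-a1 and Hba-a2 can be told apart. The transcripts were not compared here, so the counts of Hba-a1 and Hba-a2 are taken as uncertain one by one.

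Late erythroblasts made up 8.73% (8.19 to 9.28) of filtered barcodes in the CGG-Cit library and 4.06% (3.71 to 4.42) in the CGG library, a difference of 4.67 percentage points (4.03 to 5.32). Depth moved with this difference. Filtered barcodes had a median of 6232 UMIs in the CGG-Cit library and 3921 in the CGG library, and the rule asks for a minimum count. Members were closer in depth, with medians of 13997 and 12108.5 UMIs. With every barcode thinned to 2000 UMIs before the rule was applied, 122 of 9563 CGG-Cit barcodes (1.28%) and 91 of 9071 CGG barcodes (1.0%) passed, a difference of 0.273 percentage points. The thinning drew on all UMIs, globin included, so this value does not separate depth from globin share. The part of depth in the difference was not tested. Early erythroid barcodes, taken as those outside the rule with at least 1 UMI of Klf1 and 3 UMIs of Car1, numbered 90 in the CGG-Cit library and 30 in the CGG library. Late erythroblasts were thus 91.1% of the late and early barcodes together in the CGG-Cit library and 94.3% in the CGG library.

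The rule genes chose the cells, so their levels are a description, and the globin share fits the label. Slc4a1 had a median of 14 UMIs per barcode in CGG-Cit members (quartiles 8 and 21, highest 119) and 16.5 in CGG members (9 to 25, highest 71). Alas2 had a median of 11 UMIs in CGG-Cit members and 10 in CGG members. The summed UMIs of Hba-a1, Hba-a2, Hbb-bs and Hbb-bt took a median of 76.1% of the UMIs of a CGG-Cit member and 71.8% of those of a CGG member. The same share was 0.178% and 1.12% in the early erythroid barcodes of the CGG-Cit and CGG libraries, and 0.374% and 0.355% in their barcodes without erythroid UMIs. The members spread widely, with globin shares of 0.626% to 96.7% in the CGG-Cit library and 4.75% to 96.1% in the CGG library. Barcodes with 3 UMIs of the scarcer rule gene numbered 84 in the CGG-Cit library and 56 in the CGG library, with median globin shares of 93.8% and 64.1%. Those just outside, with 2 UMIs, numbered 90 and 82, with shares of 93.6% and 58.7%.

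Adult globins had similar proportions in both libraries when all members were summed. Of the 4 adult globins' UMIs, which are counted at the 3′ end and not scaled by length, Hbb-bs gave 46.5% in CGG-Cit members and 45.5% in CGG members. Hbb-bt gave 13.3% and 13.2%, Hba-a1 21.8% and 22.7%, and Hba-a2 18.4% and 18.6% in the CGG-Cit and CGG members. The alpha to beta ratio was 0.673 in CGG-Cit members and 0.703 in CGG members, and 10% to 90% of single barcodes ran from 0.547 to 0.789 and from 0.560 to 0.839. Both libraries therefore overlapped broadly in this ratio. Split by globin share into the low, middle and high ranges described next, Hbb-bs over Hbb-bt was 3.12, 3.49 and 3.72 in CGG-Cit members and 2.98, 3.44 and 3.83 in CGG members. Hba-a1 over Hba-a2 was 1.40, 1.21 and 1.09 in CGG-Cit members and 1.52, 1.22 and 1.08 in CGG members, so both ratios differed along the ranges in the same direction in both libraries. Embryonic globins were close to absent. Hbb-y had 7 UMIs in CGG-Cit members and 3 in CGG members, Hbb-bh1 had 2 and 0, Hba-x had 1 and 0, and Hbb-bh2 had 0 and 0. Hbq1b, a theta globin gene, reached 144 CPM in CGG-Cit members and 153 CPM in CGG members, against 2.38 and 1.04 CPM in early erythroid barcodes.

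Members of both libraries were ranked by globin share and split at 62.5% and 84.5% into a low, a middle and a high range of nearly equal total size. The ranges cut a continuous measure and are not cell types. The low, middle and high ranges held 295, 288 and 336 CGG-Cit members, and 178, 184 and 136 CGG members. The high range thus took 36.6% (33.4 to 39.8) of CGG-Cit members and 27.3% (23.4 to 31.4) of CGG members. Total UMIs per barcode differed little along the ranges, with medians of 15922, 12289 and 14081.5 in the CGG-Cit library and 12695, 10840.5 and 12802.5 in the CGG library. Non-globin UMIs were lower at higher globin share by construction, with medians of 8655, 3352 and 1326 in CGG-Cit members and 6546, 2442.5 and 1037 in CGG members. The number of detected genes was 2459, 1219 and 511 along the CGG-Cit ranges and 2174, 969 and 457 along the CGG ranges. Mean UMIs per barcode are the quantity given along the ranges, so a lower value there need not be a lower share of non-globin UMIs.

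**Figure D1:**
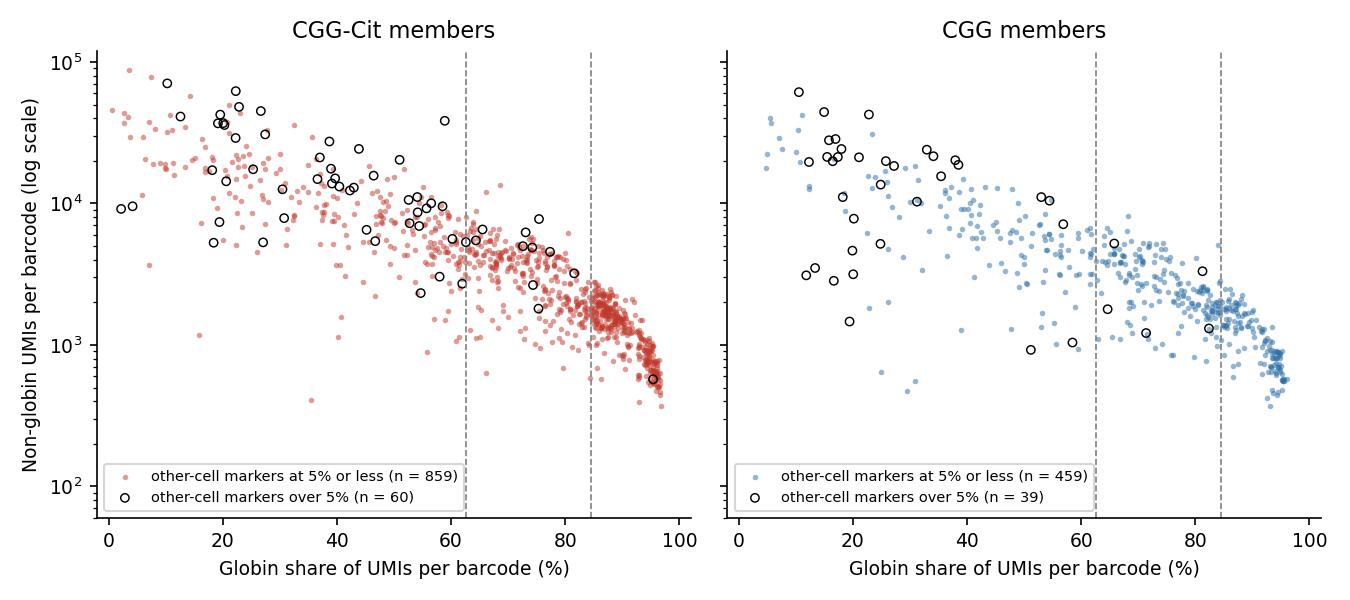
Globin share of UMIs (x axis, percent) against non-globin UMIs (y axis, log scale) for each late erythroblast of the CGG-Cit library (left, red) and the CGG library (right, blue), with dashed lines at the cuts of 62.5% and 84.5%. Open circles mark the 60 CGG-Cit and 39 CGG barcodes with over 5% of non-globin UMIs from markers of other cells, most of which lie in the low range.

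Nearly all measured genes were lower per barcode in the high than in the low range, and few were higher. Since non-globin UMIs were lower in the high range by construction, most genes had to be lower by this measure. By CPM, genes went both ways. Kel stood at 204 CPM in the low and 597 CPM in the high CGG-Cit range, against 332 and 732 CPM in the CGG ranges. Hemgn stood at 1168 and 463 CPM in the CGG-Cit ranges, and at 1710 and 366 CPM in the CGG ranges. Of 5520 genes measured in both libraries, 5322 (96.4%) were lower and 30 (0.543%) higher in the high range of both. In the CGG-Cit library alone 97.1% were lower and 0.576% higher, and in the CGG library alone 97% were lower and 0.815% higher. All 30 were 1.5-fold or more higher also without the barcodes rich in markers of other cells. Bpgm, the enzyme that makes the 2,3-bisphosphoglycerate that loosens oxygen from hemoglobin, was highest among them by the smaller of the 2 libraries' ratios. It averaged 4.93, 6.84 and 19.3 UMIs per barcode in the low, middle and high ranges of CGG-Cit members, and 2.38, 6.42 and 17.7 in those of CGG members. Every barcode of the high range had a Bpgm UMI, against 9.47% of CGG-Cit and 10.2% of CGG barcodes without erythroid UMIs. Its high over low ratio was 3.92 (3.70 to 4.15) in CGG-Cit members and 7.43 (6.70 to 8.25) in CGG members. The next genes by this order were Fam213a, Tmcc2, a coiled-coil membrane protein, Xpo7, a nuclear exporter needed for nuclear condensation in mouse erythroblasts, and Fam220a. Xpo7 averaged 3.29, 5.15 and 8.28 UMIs along the CGG-Cit ranges, and 1.68, 6.44 and 7.43 along the CGG ranges. Bcl2l1, whose product Bcl-xL protects erythroblasts from death, averaged 0.936, 1.20 and 2.14 UMIs in CGG-Cit members and 0.663, 1.35 and 2.13 in CGG members. The 30 genes also held the ubiquitin enzymes Ube2h, Ube2b, Ube2o and Mkrn1, the catalase gene Cat, the skeleton protein Epb41 and the scavenger receptor gene Cd36.

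**Figure D2:**
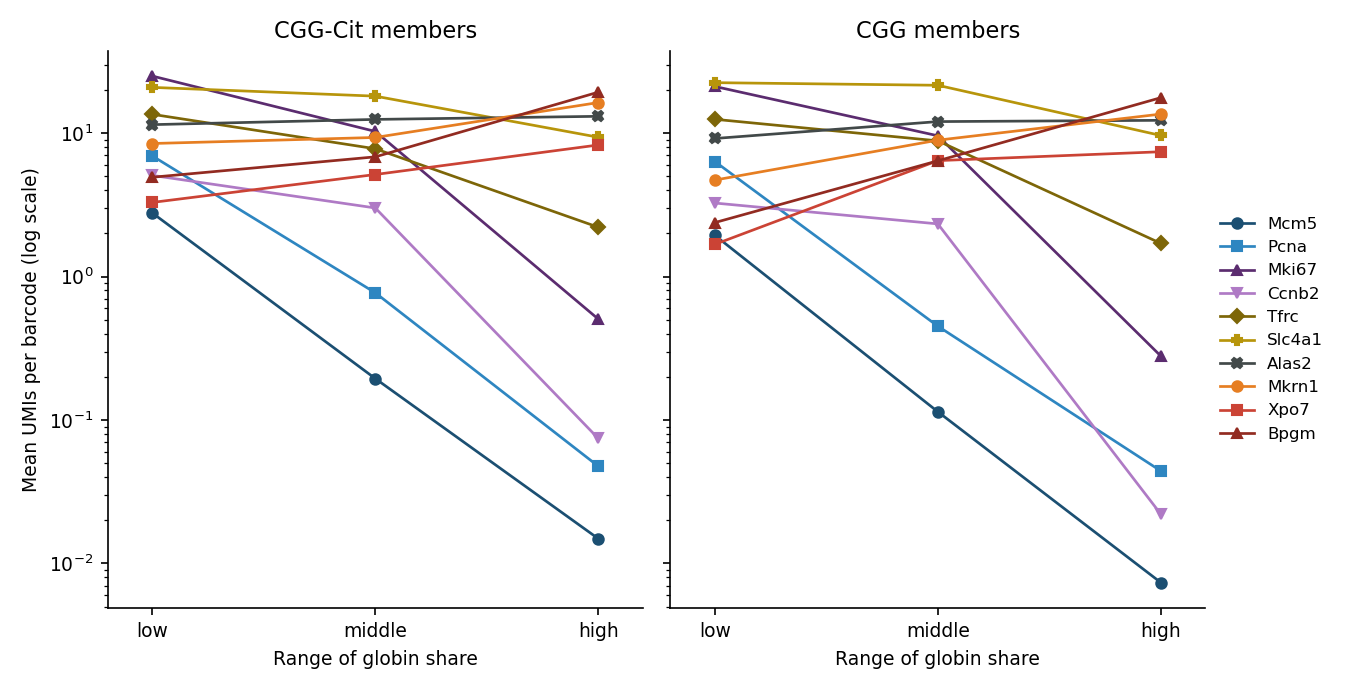
Mean UMIs per barcode (y axis, log scale) of 10 genes in the low, middle and high ranges of globin share (x axis) for CGG-Cit members (left) and CGG members (right). Bpgm, Mkrn1 and Xpo7 are higher in the high than in the low range in both libraries, Alas2 is nearly level, and Mcm5, Pcna, Mki67 and Ccnb2 are lower.

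All 30 proliferation genes were lower per barcode in the high range of both libraries. Their summed UMIs per barcode were 30.1-fold higher in the low than in the high range of CGG-Cit members and 33.0-fold higher in that of CGG members. These folds hold the difference in non-globin UMIs, with low and high medians of 8655 and 1326 in CGG-Cit members and 6546 and 1037 in CGG members. They are thus larger than a fold in the share of non-globin UMIs would be. Mcm5, part of the replicative helicase, averaged 2.78, 0.194 and 0.0149 UMIs along the CGG-Cit ranges, and 1.94, 0.114 and 0.00735 along the CGG ranges. Pcna, the clamp of DNA polymerase, averaged 6.94, 0.771 and 0.0476 UMIs in CGG-Cit members and 6.34, 0.451 and 0.0441 in CGG members. The mitotic genes Ccnb2 and Ube2c, like Mcm5 and Pcna picked from the list after their values were seen, had more of their level in the middle range. Ccnb2, a mitotic cyclin, averaged 5.08, 3.01 and 0.0744 UMIs in CGG-Cit members and 3.26, 2.33 and 0.0221 in CGG members. Ube2c, the ubiquitin enzyme of the anaphase-promoting complex, averaged 16.7, 15.8 and 3.25 UMIs in CGG-Cit members and 11.5, 11.6 and 2.19 in CGG members. Mki67, a marker of cycling cells, had a UMI in 94.9%, 80.9% and 31.0% of the barcodes of the CGG-Cit ranges, against 32.4% of CGG-Cit barcodes without erythroid UMIs. In the CGG library these shares were 91.0%, 82.1% and 21.3%, against 18.3%. The share in the high range was thus near that of other cells, but the mean was lower. Mki67 averaged 0.506 UMIs in the high range and 3.77 in other cells of the CGG-Cit library, and 0.279 and 0.998 in the CGG library. The other cells also had more non-globin UMIs, so neither comparison is at equal depth.

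Among the 12 genes of heme synthesis, 10 were lower and 0 higher in the high range of both libraries. The others were Alas2 and, in the CGG library, Fech. Alas2 was nearly level, with 11.5, 12.5 and 13.1 UMIs in CGG-Cit members and 9.19, 12.1 and 12.3 in CGG members. Alad, the second enzyme of the pathway, averaged 7.94, 4.26 and 0.280 UMIs in CGG-Cit members and 5.37, 2.78 and 0.125 in CGG members. Fech, which inserts the iron, averaged 6.42, 5.51 and 4.12 UMIs in CGG-Cit members and 5.27, 5.59 and 3.54 in CGG members. Tmem14c, a mitochondrial carrier of protoporphyrinogen, showed the steepest difference of the list, with 23.1, 2.74 and 0.185 UMIs in CGG-Cit members and 17.1, 1.75 and 0.0809 in CGG members. Iron genes were lower in 11 of 12 cases in both libraries. Tfrc, the transferrin receptor, averaged 13.5, 7.79 and 2.21 UMIs in CGG-Cit members and 12.5, 8.85 and 1.71 in CGG members. Slc25a37, mitoferrin, held its level to the middle range, with 14.5, 14.5 and 6.87 UMIs in CGG-Cit members and 13.1, 15.2 and 6.94 in CGG members. Iron-sulfur cluster genes were lower in 5 of 8 cases, and Iscu, Isca1 and Hscb passed the fold in neither direction in either library.

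Of 27 membrane and skeleton genes, 24 were lower and 2 higher in the high range of both libraries. Aqp1, the water channel, averaged 6.29, 3.77 and 0.214 UMIs in CGG-Cit members and 6.63, 3.91 and 0.132 in CGG members. Epb41, protein 4.1, went the other way with 3.76, 3.94 and 5.66 UMIs in CGG-Cit members and 3.10, 4.43 and 7.15 in CGG members. Erythroid transcription factors were lower in 19 of 20 cases, with Nfe2 the exception in the CGG library. Klf1, the factor that drives adult beta globin, averaged 4.62, 2.49 and 0.223 UMIs in CGG-Cit members and 3.44, 1.67 and 0.0662 in CGG members. Gata1, the master factor of the lineage, averaged 1.59, 0.601 and 0.0923 UMIs in CGG-Cit members and 1.03, 0.364 and 0.0221 in CGG members. Both factors belong to the genes that set the level of other cells to 0 here, so no free-RNA level exists for them.

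Of 20 ubiquitin genes, 4 were higher and 8 lower in the high range of both libraries. Mkrn1, an E3 ligase, averaged 8.48, 9.34 and 16.4 UMIs in CGG-Cit members and 4.71, 8.95 and 13.6 in CGG members. Ubb, a polyubiquitin gene, averaged 33.6, 24.3 and 36.5 UMIs in CGG-Cit members and 21, 18.5 and 25.5 in CGG members. In the list of organelle clearance and autophagy, 6 of 14 genes were lower in both libraries and 0 higher. Bnip3l, the receptor through which mitochondria are removed, averaged 5.77, 5.30 and 7.32 UMIs in CGG-Cit members and 3.27, 4.99 and 6.73 in CGG members. By contrast, all 20 respiratory chain genes and all 16 measured genes of the citrate cycle were lower in the high range of both libraries. Cox4i1, a subunit of cytochrome oxidase, averaged 14.6, 3.50 and 0.720 UMIs in CGG-Cit members and 10.1, 2.42 and 0.581 in CGG members. Lists for red cell enzymes (2 higher, 11 lower of 15), enucleation (2 higher, 11 lower of 15), heme export and breakdown (0 higher, 6 lower of 6), cell cycle exit (0 higher, 11 lower of 13), stress translation (0 higher, 9 lower of 11), interferon response (0 higher, 8 lower of 14), erythropoietin signalling (1 higher, 7 lower of 8), early progenitor genes (0 higher, 9 lower of 9) and nuclear long RNA (0 higher, 4 lower of 4) completed the comparison. Over all measured genes the share lower was 96.4%, so a list with nearly all genes lower did not stand apart from it.

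Malat1, a long RNA that stays in the nucleus, divided the high range into separate groups of barcodes. In CGG-Cit members of the high range, 147 had under 12 Malat1 UMIs, 4 had 12 to 19 and 185 had 20 or more. In CGG members these numbers were 82, 0 and 54. Barcodes under 12 UMIs were rare at lower globin share, with 4 in the low and 3 in the middle range of the CGG-Cit library and 5 and 2 in those of the CGG library. The barcodes of the high range under 12 UMIs formed 16% (13.7 to 18.5) of CGG-Cit members and 16.5% (13.3 to 20) of CGG members. The label of erythroblast, a nucleated cell, thus had its nuclear marker near 0 in these barcodes, and they are called here by their Malat1 count. The cut at 12 was chosen after the values had been seen. Among barcodes without erythroid UMIs, 99.2% in each library had a Malat1 UMI.

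**Figure D3:**
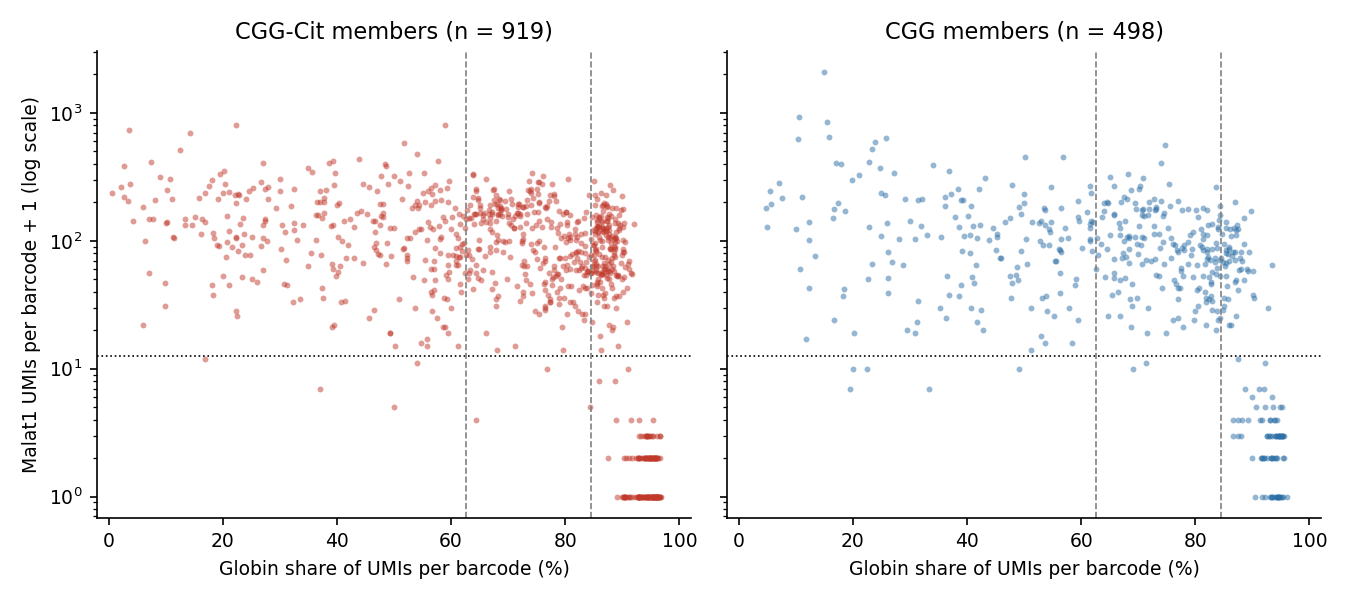
Malat1 UMIs per barcode plus 1 (y axis, log scale) against globin share (x axis, percent) for 919 CGG-Cit members (left, red) and 498 CGG members (right, blue). Dashed lines mark the range cuts at 62.5% and 84.5%, the dotted line lies between 11 and 12 UMIs, and below it 147 CGG-Cit and 82 CGG barcodes of the high range form a separate cloud.

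Total depth was similar in barcodes with low and high Malat1. Median UMIs per barcode were 14839 in the group under 12 and 13538 in the group at 12 or more in the CGG-Cit library, and 12894 and 12514.5 in the CGG library. Globin took a median of 94.4% under 12 and 87.3% at 12 or more in the CGG-Cit library, and 93.5% and 86.9% in the CGG library. Fewer genes were detected, with medians of 322 under 12 and 600 at 12 or more in CGG-Cit members and 369.5 and 630.5 in CGG members. Of 813 genes measured in both libraries, 429 (52.8%) had a lower mean UMI count under 12 in both and 0 (0%) a higher one. The median ratio over these genes was 0.482 in the CGG-Cit library and 0.483 in the CGG library, which is the level against which single genes stand.

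Lowest under 12 was Neat1, another nuclear long RNA, with 0.0408 UMIs per barcode under 12 and 1.05 at 12 or more in the CGG-Cit library, and 0.0244 and 1.22 in the CGG library. Clcn3, Clk1, Akap13, Slfn14, Rsrp1 and Ermap also stood at the low end. Ermap, the erythroid membrane protein of the Scianna blood group, averaged 0.170 UMIs under 12 and 2.14 at 12 or more in the CGG-Cit library, and 0.171 and 2.09 in the CGG library. Xpo7 averaged 1.78 UMIs under 12 and 13.3 at 12 or more in CGG-Cit members, and 2.49 and 14.9 in CGG members. Tmcc2 averaged 2.93 and 19.3 UMIs in the CGG-Cit groups, and 3.22 and 21.6 in the CGG groups. Hence the higher mean of Xpo7 and Tmcc2 across the whole high range was carried by barcodes with Malat1. Tfrc averaged 0.463 UMIs under 12 and 3.57 at 12 or more in CGG-Cit members, and 0.561 and 3.44 in CGG members.

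Other messages stood at about the same level with or without Malat1. Bpgm averaged 20.7 UMIs under 12 and 18.3 at 12 or more in CGG-Cit members, and 17.1 and 18.5 in CGG members. Alas2 averaged 12.6 and 13.5 UMIs in the CGG-Cit groups, and 11.9 and 13 in the CGG groups. Mkrn1 averaged 15.9 and 16.7 UMIs in the CGG-Cit groups, and 12.9 and 14.7 in the CGG groups. Ubb averaged 37.1 UMIs under 12 and 36.0 at 12 or more in CGG-Cit members, and 23.5 and 28.6 in CGG members. Counts by list are of genes measured in both libraries and stand beside 52.8% lower over all 813 genes. In both libraries 18 of 20 membrane genes, 8 of 9 transcription factors and 6 of 8 heme synthesis genes were lower under 12. Ubiquitin genes gave 12 of 19 and clearance genes 6 of 10, near the share over all genes. Red cell enzymes gave 4 of 9, respiratory chain genes 4 of 10 and iron genes 2 of 6. Interferon genes gave 2 of 9 and neutrophil markers 0 of 6. S100a8, a neutrophil message, averaged 4.96 UMIs under 12 and 5.58 at 12 or more in the CGG-Cit library, and 2.30 and 2.87 in the CGG library.

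**Figure D4:**
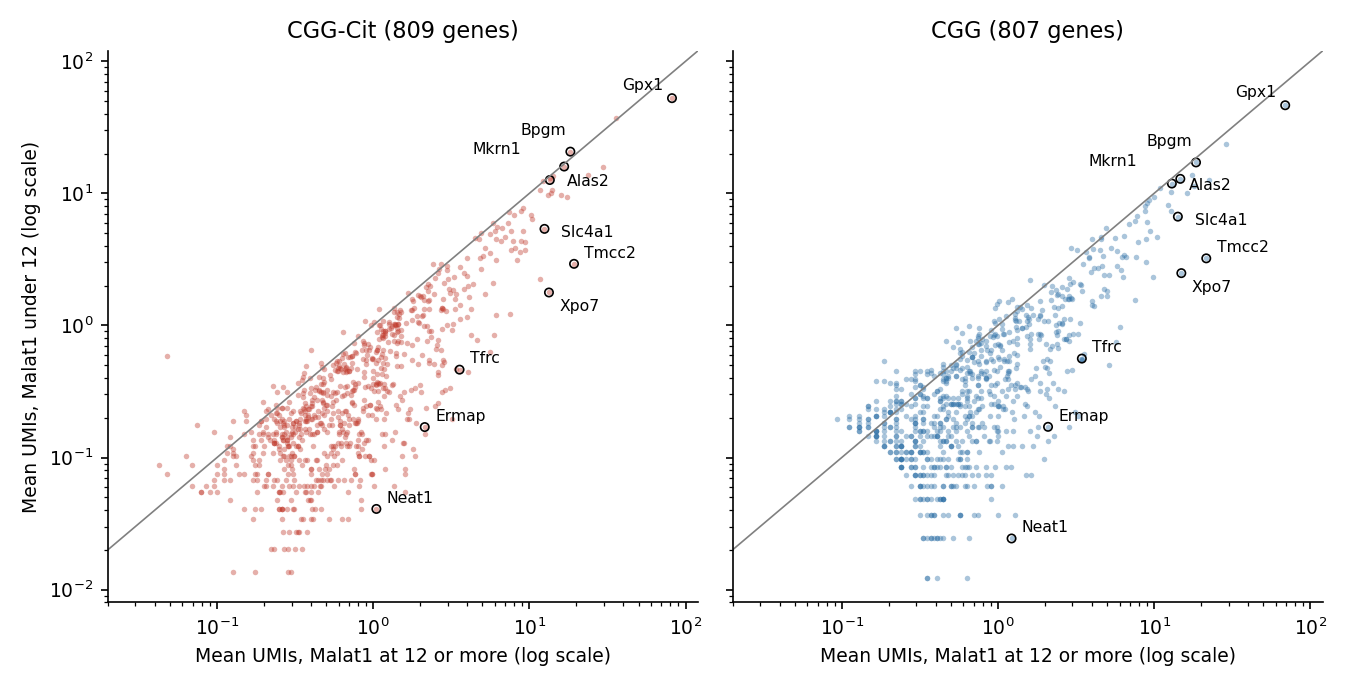
Mean UMIs per barcode in high-range members with Malat1 under 12 (y axis, log scale) against those with Malat1 at 12 or more (x axis, log scale), 1 point per gene, for the CGG-Cit library (left, red) and the CGG library (right, blue). Genes at 0 in either group are not drawn; Bpgm, Alas2 and Mkrn1 lie near the line of equality, while Xpo7, Tmcc2, Tfrc, Ermap and Neat1 lie below it.

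Barcodes rich in globin also lay outside the rule. Among filtered barcodes that failed it, 240 in the CGG-Cit library and 201 in the CGG library had at least 50% globin UMIs. Slc4a1 averaged 1.22 UMIs in these CGG-Cit barcodes and 1.59 in the CGG ones, whereas Alas2 averaged 10.6 and 7.01. Malat1 was under 12 UMIs in 188 of the 240 and in 179 of the 201. The 16% and 16.5% above therefore count only barcodes with at least 3 UMIs of Slc4a1.

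Early erythroid barcodes gave the other end of the lineage, at greater depth, with medians of 44444 UMIs in the CGG-Cit library and 31594.5 in the CGG library. Members against them are a description, since the rule and the choice of early barcodes both used erythroid genes. Of 5562 genes measured in both libraries, 1346 (24.2%) were higher in members in both and 1563 (28.1%) lower in both. Highest by the smaller of both ratios were Slfn14, Apol11b, Alas2, Xpo7, Tmcc2, Rsad2, Fam46c, Hbq1b, Bpgm and Bcl2l1. Xpo7 reached 976 CPM in CGG-Cit members and 9.79 CPM in CGG-Cit early barcodes, against 1012 and 5.20 CPM in CGG members and early barcodes. Slfn14, a ribonuclease of the Schlafen family, stood at 463 CPM in CGG-Cit members and 0.529 CPM in the early barcodes, against 459 CPM in CGG members and 0 UMIs in the early ones. Among the lowest were Fam195a, Rangrf, Sdsl, Srm, Hspd1, Lyar, Rrp15, Mthfd1 and Mybbp1a, which include genes of spermidine synthesis, mitochondrial chaperoning and ribosome assembly. Hspd1, the mitochondrial chaperone HSP60, stood at 121 CPM in CGG-Cit members and 1014 CPM in the early barcodes, against 75 and 882 CPM in the CGG library. By list, 25 of 27 membrane genes, 19 of 20 ubiquitin genes, 13 of 14 interferon genes, 12 of 14 clearance genes, 12 of 20 transcription factors and 10 of 12 heme synthesis genes were higher in members in both libraries. Proliferation genes gave 17 of 30 higher and 0 lower. Their summed level was 16024.5 CPM in CGG-Cit members and 7628 CPM in the early barcodes, against 15389 and 8502 CPM in the CGG library. Lower in both were 12 of 20 respiratory chain genes and 15 of 17 citrate cycle genes, with 0 of either list higher. Markers of other cells were also higher in members of both libraries, with 10 of 10 neutrophil, 4 of 4 B lineage, 5 of 6 stromal and 3 of 4 macrophage markers. Summed interferon genes stood at 5610 CPM in CGG-Cit members and 6330 CPM in CGG members, against a background of 3053 and 7161 CPM. The part of free RNA and of other cells in these list counts was not tested. The summed heme synthesis level was 4.0-fold higher in members than in early barcodes of the CGG-Cit library and 3.0-fold higher in those of the CGG library. That sum holds the rule gene Alas2, and without it the values were 3.16-fold and 2.36-fold.

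Between the hydrogels, most erythroid genes of the members stood within 1.5-fold. Of 5803 genes measured, 518 (8.93%) were higher and 940 (16.2%) lower in CGG-Cit than in CGG members, with a median log2 ratio of -0.04. Without barcodes rich in markers of other cells, a step that selects on those markers, 581 of 5414 (10.7%) were higher and 629 (11.6%) lower. Restricted to the 215 genes at 10 or more times the background level in both libraries, 0 (0%) were higher and 15 (6.98%) lower, with a median log2 ratio of -0.17. In that set without the barcodes rich in other markers, 0 (0%) were higher and 28 (13%) lower. Kel, the Kell blood group protease, was lower, with 320 CPM in CGG-Cit members and 537 CPM in CGG members, a ratio of 0.596 (0.554 to 0.641). Its mean UMIs per barcode were 2.72, 2.25 and 0.792 along the CGG-Cit ranges and 3.35, 3.32 and 0.853 along the CGG ranges. Kel was thus lower in CGG-Cit members of the low and middle ranges, with a small difference in the high range. By CPM it stood at 204, 662 and 597 along the CGG-Cit ranges and at 332, 1189 and 732 along the CGG ranges. No interval was computed for these values by range. Dusp8, a phosphatase of stress kinases, stood at 47.7 CPM in CGG-Cit members and 91.7 CPM in CGG members, a ratio of 0.520 (0.433 to 0.625). Fn3krp, a fructosamine kinase relative, stood at 53.5 and 95.3 CPM, and Mfsd2b, the sphingosine 1-phosphate exporter of red cells, at 56.8 and 88.4 CPM in CGG-Cit and CGG members.

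Heme synthesis genes did not pass the fold in either direction (0 of 12, median log2 ratio -0.04), nor did ubiquitin genes (0 of 20, -0.03) or iron-sulfur cluster genes (0 of 8, 0.04). Alas2 stood at 2122 CPM in CGG-Cit members and 2242 CPM in CGG members. Membrane and skeleton genes had a median log2 ratio of -0.22, and 1 of 27 was past the fold, Kel. The genes well above background, a set chosen after the values were seen that also holds Kel, had a median of -0.17. Without barcodes rich in other markers the membrane median was -0.35, beside -0.005 over all genes measured. That was the lowest value over 12 settings, in which the membrane median ran from -0.35 to -0.12. No median of the genes well above background was taken without those barcodes. Slc4a1, a rule gene, stood at 2708 CPM in CGG-Cit members and 3770 CPM in CGG members. Ank1, the ankyrin that ties band 3 to the skeleton, stood at 288 CPM in CGG-Cit members and 402 CPM in CGG members. Transcription factors gave 1 higher and 3 lower of 20 (-0.08), beside 8.93% higher and 16.2% lower over all genes. E2f2, a cell cycle factor of terminal erythroid divisions, was lower at 435 CPM in CGG-Cit members and 710 CPM in CGG members, with a background of 108 and 29.6 CPM in the other direction. Klf3, a repressor downstream of Klf1, was lower at 315 and 494 CPM, with a background of 62.4 and 112 CPM in the same direction. Its ratio of 0.638 was 0.738 with an equal mix of ranges and 0.768 without the barcodes Scrublet scored highest, both inside the fold. Mafk, a partner of Nfe2, was lower at 64.5 and 99.8 CPM. Bcl11a, the repressor of fetal globin, was higher at 39.3 CPM in CGG-Cit members and 20.7 CPM in CGG members, with a background of 63.0 and 23.6 CPM.

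The counts of the next lists stand beside 8.93% higher and 16.2% lower over all genes. Iron genes gave 2 lower of 12 (-0.18), near that share. Steap3, a ferrireductase, stood at 26.6 CPM in CGG-Cit members and 50.7 CPM in CGG members, and Slc40a1, ferroportin, at 46.4 and 85.6 CPM. Neither call held throughout, as the ratio of Slc40a1 was 0.854 without the barcodes Scrublet scored highest, and that of Steap3 was 0.673 without barcodes rich in other markers. In organelle clearance 3 of 14 were lower (-0.18). Ulk1, the kinase that starts autophagy, stood at 59.4 CPM in CGG-Cit members and 112 CPM in CGG members, with a background of 15.9 and 21.8 CPM. Gabarapl1 and Sqstm1 were the others. Red cell enzymes gave 1 higher of 15 (0.07), Gsr, glutathione reductase, at 158 CPM in CGG-Cit members and 98.2 CPM in CGG members with a background of 396 and 208 CPM. Its ratio was 1.39 with an equal mix of ranges and without barcodes rich in other markers. Proliferation genes gave 2 higher of 30 (0.12). Cdc20, the mitotic activator, stood at 144 CPM in CGG-Cit members and 86.4 CPM in CGG members, and Stmn1, a tubulin-binding protein, at 899 and 590.2 CPM, with backgrounds of 83.8 and 17.0 CPM and of 1003 and 243 CPM. Respiratory chain genes gave 1 higher of 20 (0.16), Cox5a. Heme export and breakdown gave 1 higher and 1 lower of 6 (-0.08). Hmox1, the inducible heme oxygenase of macrophages, stood at 7.08 CPM in CGG-Cit members and 120.5 CPM in CGG members, with a background of 16.2 and 108 CPM.

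Citrate cycle and acetyl-CoA genes had 5 higher and 1 lower of 16 and a median log2 ratio of 0.26, beside 8.93% higher and 16.2% lower over all genes. These were Idh3a, Idh2, Suclg1, Fh1 and Acly, with Dlst lower. Idh2, mitochondrial isocitrate dehydrogenase, stood at 35 CPM in CGG-Cit members and 15 CPM in CGG members, below a background of 72.3 and 40.5 CPM. Suclg1, of succinyl-CoA ligase, stood at 53.5 and 29.6 CPM, below a background of 98.6 and 61.0 CPM. The part of free RNA and of other cells in these values was not tested. Slc13a5, a citrate transporter of the plasma membrane, had 0 UMIs in CGG-Cit members and 1 UMI in CGG members.

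Interferon response genes had 0 higher and 5 lower of 14, beside 8.93% higher and 16.2% lower over all genes. Their median log2 ratio of -0.35 was 0.00 without the barcodes rich in other markers. Isg15, Rsad2 and Isg20 stood far above the early erythroid barcodes. Isg15, a ubiquitin-like modifier, stood at 1739 CPM in CGG-Cit members and 1267 CPM in CGG members, while the background was 140 and 494 CPM, in the other direction. Its ratio of 1.37 (1.32 to 1.43) was under the fold, but it was 1.565 with an equal mix of globin ranges, 1.54 with that mix and without barcodes rich in other markers, and 1.55 without the barcodes Scrublet scored highest. The other alternatives stayed under the fold. Among them were 1.34 without barcodes rich in other markers, 1.32 with at least 5 UMIs of each rule gene and 1.48 with members thinned to 5000 UMIs. The spread within a library was wide, with a median of 3 UMIs and a mean of 10.5 in the low range of CGG-Cit members, and a median of 2 and a mean of 6.55 in that of CGG members. Rsad2, viperin, stood at 1091 CPM in CGG-Cit members and 939 CPM in CGG members, against 14.0 and 7.27 CPM in early barcodes. Isg20, an exonuclease, stood at 1162 CPM in CGG-Cit members and 990.1 CPM in CGG members, against 155 and 174 CPM in early barcodes. Those lower were Ifit1, Ifit3, Ifi27l2a, Ifitm3 and Bst2, each lower also in the CGG-Cit than in the CGG background. The direction of Ifit1 was not stable, since its ratio was 0.42 in all members, 1.19 without barcodes rich in other markers, 1.01 with an equal mix of ranges and 1.55 with both.

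**Figure D5:**
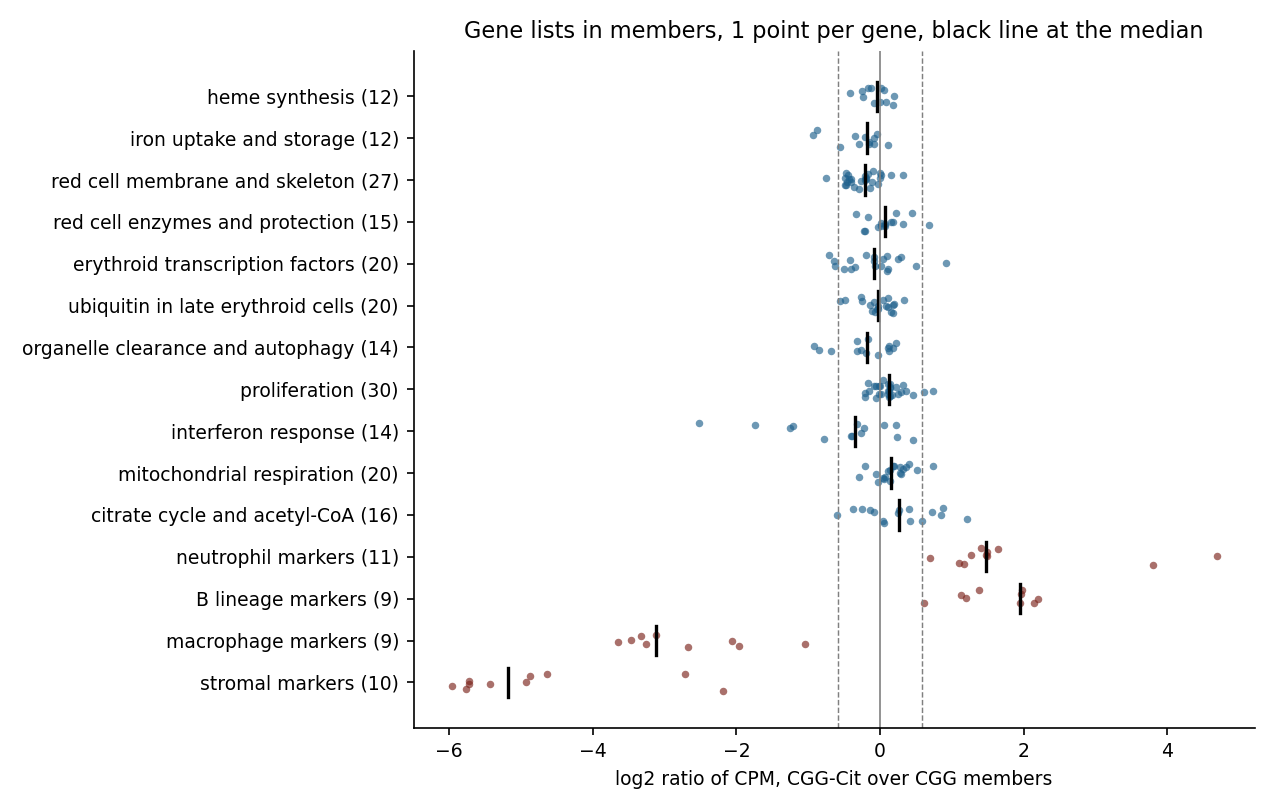
Log2 ratio of CPM in CGG-Cit over CGG members (x axis) for the measured genes of 15 lists, 1 point per gene, with the number of genes in brackets, a black line at the median and dashed lines at 1.5-fold. The erythroid lists have medians nearer to 0, such as -0.04 for heme synthesis and -0.22 for membrane and skeleton, while neutrophil (1.47), B lineage (1.94), macrophage (-3.12) and stromal (-5.18) markers lie far from 0.

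The counts of the remaining lists stand beside 8.93% higher and 16.2% lower over all genes. Early progenitor genes gave 2 higher and 3 lower of 9, erythropoietin signalling 1 higher and 2 lower of 8, cell cycle exit 1 higher and 4 lower of 13, enucleation 1 higher (Rac2) and 1 lower (H1f0) of 15, stress translation 0 higher and 3 lower of 13, and nuclear long RNA 1 higher and 1 lower of 4. The 3 lower stress genes were the heat shock genes Hspa1a, Hspa1b and Hspb1. Hspa1a stood at 1.3 CPM in CGG-Cit members and 62.5 CPM in CGG members, with a background of 6.73 and 183 CPM. Epor, the erythropoietin receptor, stood at 120 CPM in CGG-Cit members and 134 CPM in CGG members. Without the barcodes rich in markers of other cells, 11.6% of all genes were lower. By list, the lower genes then numbered 4 of 27 for membrane and skeleton (Kel, Slc4a1, Ank1 and Tmod1), and Slc4a1 is a rule gene. Clearance gave 2 of 14, ubiquitin 1 of 20 and interferon genes 3 of 14. Of the proliferation genes 1 stayed past the fold, Cdc20, while the ratio of Stmn1 was 1.41 in that setting. Both theta globins and no other globin outside the 4 adult genes were measured, and neither passed the fold.

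The strongest differences between the hydrogels lay in genes of other cells. Highest in CGG-Cit members were Ctsg, Mpo, Prtn3, Elane, Jchain, Nkg7, Ptprcap, Ms4a3, Ly6g and Mzb1, mostly of neutrophil granules and lymphocytes. For Jchain, the joining chain of antibodies, the ratio of 12.6 was 0.450 without the barcodes Scrublet scored highest and 1.26 with members thinned to 5000 UMIs. Ctsg, a granule protease, stood at 283 CPM in CGG-Cit members and 4.87 CPM in CGG members, with a background of 736 and 161 CPM. Lowest were Fbln2, Ccl8, Sfrp2, Cthrc1, C1qtnf3, Tagln, Adamts5, Prss23, Igfbp3 and Gpha2, mostly of matrix and stromal cells. Sfrp2, a secreted Wnt modulator, had 3 UMIs in CGG-Cit members and 613 in CGG members, with a background of 7.12 and 820 CPM. All 20 genes differed in the same direction in the background, and Gpha2, Ccl8, Fbln2, C1qtnf3 and Tagln had 0 UMIs in CGG-Cit members. The marker lists moved as wholes. All 11 neutrophil and all 9 B lineage markers measured were higher in CGG-Cit members, and all 9 macrophage and all 10 stromal markers were lower. Their summed levels were 55047 and 22469 CPM for neutrophil, 1235 and 363 for B lineage, 268 and 2575 for macrophage, and 442 and 13713 for stromal markers in CGG-Cit and CGG members. Of T and NK markers 1 was measured, Nkg7, and of megakaryocyte markers 1, Pf4, lower in CGG-Cit members, while 0 endothelial and 0 mast cell markers reached the minimum.

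A few barcodes carried most of the neutrophil marker UMIs, and most of the stromal ones, but not most of the B lineage ones or of the macrophage ones in CGG members. Markers of neutrophils, B lineage, macrophages and stroma passed 5% of non-globin UMIs in 60 CGG-Cit and 39 CGG members, which held 88.7% and 82.1% of all UMIs of these markers. Without them the summed levels in CGG-Cit and CGG members were 6345 and 2979 CPM for neutrophil, 1346 and 382 for B lineage, 103 and 2714 for macrophage, and 71.2 and 3069 for stromal markers. The median log2 ratios were then 0.89, 1.80, -4.66 and -6.37 in that order. The mixed barcodes also held 18.3% of non-globin UMIs of CGG-Cit members and 23.5% of those of CGG members. By range, 48, 11 and 1 of them lay in the low, middle and high range of the CGG-Cit library, and 34, 5 and 0 in those of the CGG library. Scrublet, which scores likely doublets, marked 51 of the 60 and 16 of the 39. In the top 5% of members by S100a8, 46 CGG-Cit and 25 CGG barcodes held 89.1% and 91.9% of its UMIs. One CGG-Cit barcode held 522 of the 554 Col1a1 UMIs of that library's members. The part of such mixed barcodes in the calls between hydrogels was not tested beyond the values without them given above.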

How the data were processed

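Single-cell 3′ RNA libraries from day 14 calvarial defects were analysed, 1 per hydrogel. The deposited values are raw UMI counts per gene and barcode, written by Cell Ranger 4.0.0 per the file headers; the submitters' processing notes name Cell Ranger 3.0 and the mm10 build. Both matrices list 27998 genes, and the authors' cell filters and annotation were not used here. Python 3.11.15, numpy 2.4.6, scipy 1.17.1, pandas 2.3.3, scanpy 1.11.5 (with its Scrublet) and matplotlib 3.10.9 were used. Members were picked by the rule given above, and their counts were summed per library and scaled per 1000000 non-globin UMIs. Doublets were kept in the main values. Scrublet's own threshold marked 560 CGG-Cit barcodes and 1 CGG barcode, so an alternative removed the highest scores at an expected 0.8% per 1000 barcodes. Ratios of counts carry exact conditional binomial intervals, CPM exact Poisson intervals, and shares Clopper-Pearson intervals, at 95%. The difference between shares carries a Newcombe interval, which is not exact. The scripts were tested on simulated data.

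The cells, gene lists and comparisons were chosen with earlier results of these data known. Named between hydrogels were the 10 highest and 10 lowest genes by the interval bound nearest to 1, with at least 50 CPM and 30 UMIs, leaving out mitochondrial, ribosomal, predicted, X-inactivation and Y-linked genes. Against early barcodes the 10 highest and lowest by the smaller ratio of both libraries were named, and listed genes could be named as well. The Malat1 groups, the genes at 10 or more times background and the genes named from them or from the globin ranges were chosen after their values were seen. Alternatives changed the UMI minimum of the rule, the gene filter, doublets, depth, scaling, the low-count filter, barcodes rich in other markers and the mix of globin ranges. Each UMI was counted by gene, so near-identical genes cannot be told apart fully. Some genes are not reported here.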

Additional observations from a re-analysis of the deposited data

Results flagged for a closer look

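Barcodes under the minimum of 200 detected genes were outside every comparison, yet some were rich in globin. In the CGG-Cit library 217 of 10806 barcodes (2.01%, 1.75 to 2.29) had under 200 genes and at least 50% globin UMIs, and in the CGG library 40 of 12527 (0.319%, 0.228 to 0.435). Their median globin share was 96.7% in the CGG-Cit library and 93.3% in the CGG library, at medians of 7275 and 3636.5 UMIs and 148 and 177 genes. Alas2 averaged 6.48 UMIs in these CGG-Cit barcodes and 3.43 in the CGG ones, and Bpgm 6.02 and 1.53. Malat1 averaged 0.475 and 0.775 UMIs, and Slc4a1 0.235 and 0.2. Barcodes of this kind therefore carried late erythroid messages and little nuclear RNA, and the gene minimum kept them out of the members.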

How the results depend on the processing

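Of 60 alternative values of the main results, 31 lay outside the 95% interval of the main value or, for counts of genes, past 1.5 times the main count, 29 did not, and 0 turned the direction. The share difference of 4.67 percentage points was 4.0 with at least 5 UMIs of each rule gene, 3.88 with at least 500 genes, 3.96 without the barcodes scored highest by Scrublet and 0.273 with every barcode thinned to 2000 UMIs. The globin share difference of 4.27 points was 0.768 with at least 500 genes. The proliferation ratio, low over high range, was 26.7 (at least 5 UMIs), 33.3 (at least 2), 14.6 (500 genes), 32.0 (Scrublet) and 22.2 (members thinned to 5000 UMIs) in CGG-Cit members, and 24.4, 16.6 and 29.2 with 5 UMIs, 500 genes and thinning in CGG members. Summed heme synthesis over early barcodes was 4.13, 4.31, 3.85, 5.06 and 4.58 in the CGG-Cit library (5 UMIs, 2 UMIs, 500 genes, Scrublet, without barcodes rich in other markers), and 3.12, 2.87, 3.37 and 3.63 in the CGG library (5 UMIs, 2 UMIs, Scrublet, without barcodes rich in other markers). Without Alas2, an alternative chosen after seeing the data, it was 3.16 and 2.36 in the CGG-Cit and CGG libraries. Genes higher in CGG-Cit members numbered 307 (Scrublet), 181 (all UMIs in the total), 944 (no minimum CPM) and 98 (at least 100 CPM), and those lower 419, 1810 and 201 under the last 3 of these. The log2 ratio of Jchain turned to -1.15 without the barcodes scored highest by Scrublet. That of Ifit1 turned to 0.25 without barcodes rich in other markers, 0.016 with an equal mix of ranges and 0.63 with both, also chosen later, as was the background minimum. The cause was not tested. Kel kept a ratio of 0.551 to 0.665, E2f2 0.557 to 0.668 and Ulk1 0.477 to 0.561 over the alternatives. No paired analysis was possible because each hydrogel had 1 library. Depth limits low genes most, since a count of 0 still allows 3 UMIs.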
